A study of Mus musculus with 27 samples.

Results

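Enzymes that modify and crosslink collagen were followed across cultured mouse liver models by bulk RNA-seq. The set held 10 genes, matched by symbol: the lysyl oxidases Lox, Loxl1, Loxl2, Loxl3 and Loxl4, the transglutaminase Tgm2, the lysyl hydroxylases Plod1, Plod2 and Plod3, and the prolyl 4-hydroxylase subunit P4ha1. All 10 were present among the 21850 genes of the deposited table. The 27 libraries covered 9 conditions with 3 libraries each, all C57BL/6.

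Freshly isolated hepatocytes were the uncultured reference. Hepatocyte organoids (HepOrgs), grown in Matrigel from primary hepatocytes and used at passage 2, stayed in the expansion medium HM-Wnt or were switched to a minimal medium called MM, and were collected after 7 or 14 days (1 or 2 weeks). HM-Wnt held growth factors, the WNT activator CHIR, the TGFβ receptor inhibitor A83-01, ROCK inhibitor and WNT-conditioned medium, whereas MM kept only the last pair of these additives in its base medium. Periportal assembloids were made by mixing 10 HepOrgs, 1000 cholangiocytes and portal mesenchymal cells per well, and were kept in MM for 7 or 18 days (1 or 2.5 weeks). Homeostatic assembloids received 250 mesenchymal cells per well and fibrotic-like assembloids 2500. The cholangiocytes came from organoids carrying a nuclear tdTomato reporter, and the mesenchyme was a cultured PDGFRα-H2B-GFP and SCA1 positive population. The genotype was labelled WT throughout, except that replicate 3 of the fresh hepatocytes was titled WT but carried the genotype label MDR2-het. The labels do not say whether replicates came from separate mice or cultures, so the p-values below measure the spread between these libraries only.

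Newly made procollagen chains are hydroxylated in the endoplasmic reticulum. Prolyl 4-hydroxylase acts on proline and makes the triple helix stable at body temperature, while lysyl hydroxylases act on lysine and prepare sites for sugars and for crosslinks. Outside the cell, lysyl oxidases convert lysine and hydroxylysine side chains to aldehydes, from which covalent crosslinks between collagen or elastin molecules form, and transglutaminase 2 joins glutamine to lysine in matrix and cell proteins. In the fibrotic liver, portal fibroblasts and stellate cells are the cells best known for making fibrillar collagen and its crosslinking enzymes, and crosslinking is known to stiffen the scar and slow its breakdown.

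Total counts on genes ranged from 30289364 to 65348596 per library (median 43727965). Of the libraries, replicate 2 of the homeostatic assembloids at 1 week stood apart. It had counts for 8465 genes, against 14016 to 16018 in the others, and of 6919 genes well covered in the other libraries, 2031 had 3 counts or fewer in it, against at most 52 in any other library. In that library Loxl3, Loxl4, Tgm2 and Plod1 had 0 counts, while Lox had 10207 counts. The assembloid comparisons are therefore given with all 12 assembloid libraries, and values that moved are given again without it, a choice made after the data were seen. Among the fibrotic-like assembloids at 1 week, replicate 3 had the lowest level of all 10 enzymes.

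Markers of the mixed cell types were read beside the enzymes. The summed level of 8 portal mesenchyme markers ranged from 33.9 to 115 CPM (counts scaled to the library's total and normalised by the TMM method) in the 12 HepOrg libraries and from 22.3 to 143 in fresh hepatocytes. In the homeostatic assembloids it ranged from 85.5 to 1411 at 1 week (85.5 to 237 without the library with few genes) and from 102 to 146 at 2.5 weeks, and in the fibrotic-like ones from 550 to 2207 and from 578 to 1419. Pdgfra, the defining receptor of these fibroblasts, lay between 0.771 and 4.25 CPM in homeostatic and between 5.58 and 103 CPM in fibrotic-like assembloids. Ly6a alone made up 1167 of the 1411 CPM in the library with few genes. In fibrotic-like replicate 3 at 1 week it made up 428 of the 550 CPM. Krt7 was 2761 and 2389 CPM in these libraries, and summed hepatocyte markers were only 2091 and 2768 CPM. The cholangiocyte keratin Krt19 was between 13.8 and 1649 CPM in assembloids, between 0.996 and 22.4 CPM in HepOrgs and at most 0.832 CPM in fresh hepatocytes, with 0 counts in 1 of the fresh libraries. In bulk RNA, fewer cells of a type and less RNA per cell cannot be told apart. The study's methods also mention that stray cholangiocyte organoids and mesenchyme could appear in HepOrg cultures up to passage 2 and were taken out by picking.

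The enzymes fell into different patterns of level across the 9 conditions, as the plot of each library shows. Lox, Loxl1, Loxl2 and Loxl3 had their highest group means in fibrotic-like assembloids, Loxl4, Plod1, Plod2 and P4ha1 in HM-Wnt HepOrgs at 2 weeks, and Tgm2 in MM HepOrgs at 1 week. Plod3 was highest in homeostatic assembloids at 1 week, a mean that includes the library with few genes. When the conditions were ordered by mean CPM, neighbours in the order overlapped for 8 of 8 steps for Loxl1, Loxl2, Loxl3, Loxl4, Tgm2 and P4ha1, for 7 of 8 for Lox, Plod1 and Plod3, and for 6 of 8 for Plod2. The order of single conditions is thus mostly within the spread of libraries.

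**Figure D1:**
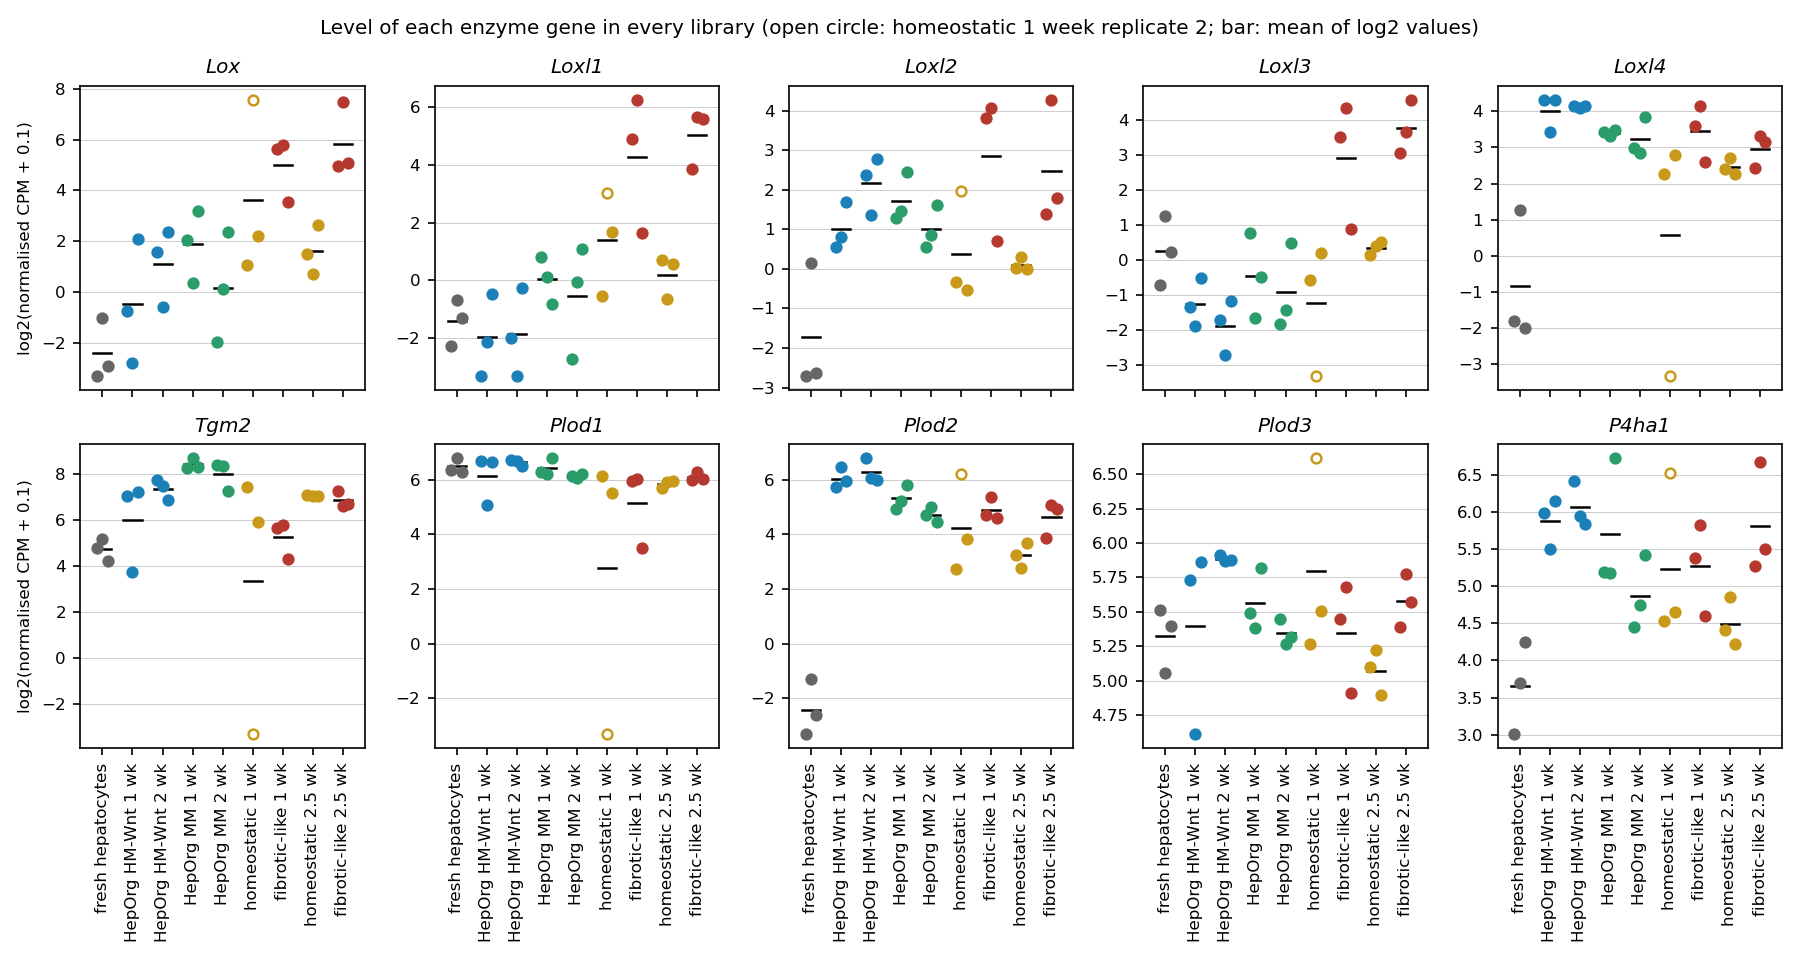
Level of each of the 10 enzymes in each of the 27 libraries, in TMM-normalised CPM on a log scale, grouped by condition. Plod2 separates the fresh hepatocytes from all cultures, and Lox, Loxl1 and Loxl3 have their highest group means in fibrotic-like assembloids, although the highest single Lox value (190 CPM) is in the homeostatic library with few genes. Plod3 stays between 24.3 and 60.2 CPM outside that library.

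Lox, the founding lysyl oxidase acting on fibrillar collagen and elastin, had 0, 0.394 and 0.0304 CPM in fresh hepatocytes. In HM-Wnt HepOrgs it was 0.494, 0.0430 and 4.11 CPM at 1 week and 2.85, 0.553 and 4.99 at 2 weeks, and in MM HepOrgs 4.08, 1.19 and 9.01 and then 0.155, 0.973 and 5.06. Replicate 3 was the highest Lox library in each of these HepOrg groups. In homeostatic assembloids Lox was 1.98, 190 and 4.50 CPM at 1 week and 2.72, 1.54 and 6.10 at 2.5 weeks. In fibrotic-like assembloids it was 49.8, 55.6 and 11.7 CPM and then 30.7, 180 and 33.6. Apart from the library with few genes, every homeostatic value of Lox lay within the HepOrg range and below every fibrotic-like value.

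Loxl1, the paralogue known for elastic fibre upkeep (ENSMUSG00000032334, chr9:58195014-58220495, minus strand, GRCm39), was low outside assembloids, with 0 to 2.04 CPM across the 12 HepOrg libraries and 0.106 to 0.525 in fresh hepatocytes. Homeostatic assembloids had 0.579, 8.11 and 3.09 CPM at 1 week and 1.52, 0.534 and 1.38 at 2.5 weeks. Fibrotic-like assembloids had 29.6, 76.7 and 3.05 CPM and then 14.5, 50.3 and 47.8. At 2.5 weeks the groups were far apart, whereas at 1 week the third fibrotic-like library sat inside the homeostatic range. Loxl3 (ENSMUSG00000000693, chr6:83011152-83029543, plus strand), 1 of the lysyl oxidases with scavenger receptor domains, had 0.579, 0 and 1.04 CPM in homeostatic and 11.4, 20.3 and 1.75 in fibrotic-like assembloids at 1 week, where the groups, unlike those of Loxl1, did not overlap. At 2.5 weeks Loxl3 was 1.01, 1.23 and 1.32 CPM in homeostatic and 8.25, 12.7 and 23.9 in fibrotic-like assembloids, with no overlap.

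Loxl2, which also carries scavenger receptor domains and is known for crosslinking basement membrane collagen (ENSMUSG00000034205, chr14:69846209-69933283, plus strand), ranged from 1.36 to 6.78 CPM in the 12 HepOrg libraries. Fresh hepatocytes had 0.0533, 1.01 and 0.0609 CPM, which is 2, 23 and 2 counts. In assembloids Loxl2 was 0.689, 3.84 and 0.597 CPM (homeostatic, 1 week), 0.920, 1.13 and 0.898 (homeostatic, 2.5 weeks), 13.9, 16.6 and 1.52 (fibrotic-like, 1 week) and 2.54, 19.2 and 3.35 (fibrotic-like, 2.5 weeks). Loxl4 (ENSMUSG00000025185, chr19:42580711-42601252, minus strand), the remaining scavenger receptor type enzyme, ranked above the other lysyl oxidases in every HepOrg group per kilobase of annotated exon. It had 19.8, 10.7 and 19.7 CPM in HM-Wnt at 1 week and 17.8, 17.1 and 17.8 at 2 weeks, against 0.186, 2.32 and 0.152 in fresh hepatocytes. In MM HepOrgs Loxl4 was 10.6, 9.87 and 11 CPM and then 7.75, 7.08 and 14.2. Its assembloid values, 4.67 to 17.5 CPM outside the library with few genes, did not separate by mesenchyme number.

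Tgm2 (ENSMUSG00000037820, chr2:157958322-157988359, minus strand) was 27.7, 35.9 and 18.7 CPM in fresh hepatocytes. In HM-Wnt HepOrgs it was 132, 13.3 and 151 CPM at 1 week and 215, 182 and 117 at 2 weeks, and in MM HepOrgs 314, 421 and 318 and then 345, 331 and 156. Replicate 2 of HM-Wnt at 1 week, with 13.3 CPM, was the only HepOrg library below the fresh hepatocytes. Homeostatic assembloids had 174, 0 and 61.1 CPM at 1 week and 139, 134 and 134 at 2.5 weeks, and fibrotic-like ones 50.4, 55.0 and 20.1 and then 155, 99.3 and 106. Levels of different genes can be compared only per length. Per kilobase of annotated exon, Tgm2 ranked first of the 10 enzymes in both MM HepOrg groups (69.4 and 52.8 CPM per kilobase) and in homeostatic assembloids at 2.5 weeks (25.2), and it did so by the gene length of the deposited table as well. That length covers 90.7 to 100.0% of the gene span of the 10 genes, introns included. By it Plod3 took the first place in fresh hepatocytes, against Plod1 per exon length. Whether the counts also include reads from introns was not tested.

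Plod2, the lysyl hydroxylase of the collagen telopeptides (ENSMUSG00000032374, chr9:92424119-92490494, plus strand), was almost absent from fresh hepatocytes, at 0, 0.306 and 0.0609 CPM (0, 7 and 2 counts). In HM-Wnt HepOrgs it was 52.7, 88.6 and 61.6 CPM at 1 week and 112, 67.3 and 63.4 at 2 weeks, and in MM HepOrgs 30.1, 37.3 and 56.2 and then 26, 31.9 and 21.7. Every HepOrg library was thus far above every fresh library. Homeostatic assembloids had 6.53, 74.0 and 14.0 CPM and then 9.37, 6.73 and 12.8, and fibrotic-like ones 26, 41.6 and 24.4 and then 14.6, 33.9 and 30.6. P4ha1, the catalytic subunit that pairs with P4hb (ENSMUSG00000019916, chr10:59159092-59209126, plus strand), was 7.94, 12.9 and 19.0 CPM in fresh hepatocytes, 45.2 to 84.9 in HM-Wnt HepOrgs, 21.7 to 106 in MM HepOrgs, 18.5 to 28.9 in homeostatic and 38.6 to 102 in fibrotic-like assembloids at 2.5 weeks. Plod1 (ENSMUSG00000019055, chr4:147991574-148021356, minus strand), which acts on lysines of the helix, and Plod3 (ENSMUSG00000004846, chr5:137015827-137025502, plus strand), which also adds sugars to hydroxylysine, were expressed in all conditions. Outside the library with few genes they ranged from 11.2 to 112 and from 24.3 to 60.2 CPM.

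In the main fits, HepOrgs against fresh hepatocytes was the contrast with the most members called. It was also the contrast with the most genes called, higher and lower alike. Against fresh hepatocytes, 5 of the 10 members, Loxl2, Loxl4, Tgm2, Plod2 and P4ha1, were higher in all 4 HepOrg groups (edgeR quasi-likelihood test, Benjamini-Hochberg adjusted over 13405 genes, threshold 0.05). Loxl1, Plod1 and Plod3 passed in none. In HM-Wnt at 1 week 5 members were higher and 0 lower, where 24.9% of genes were higher and 24.8% lower. In HM-Wnt at 2 weeks Lox joined them, and Loxl3 was lower, giving 6 higher and 1 lower against 26.1% and 25.7% of genes. In MM at 1 week 6 members were higher, including Lox, and 0 lower, against 21.5% and 21.3%, and in MM at 2 weeks 5 were higher and 0 lower, against 19.7% and 20.0%. The 4 comparisons share the fresh libraries.

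Plod2 had the largest difference of the set, with log2 fold changes of 9.30 (SE 0.63, edgeR adjusted p = 2.46e-07) and 9.57 (SE 0.64, adjusted p = 2e-07) in HM-Wnt at 1 and 2 weeks, and of 8.61 (SE 0.63, adjusted p = 5.14e-07) and 8.02 (SE 0.62, adjusted p = 9.7e-07) in MM. With so few counts in fresh hepatocytes, the size of the Plod2 fold change depends on the prior count of the fit. Loxl4 rose by 4.31 (SE 0.74, adjusted p = 0.000369) and 4.37 (SE 0.74, adjusted p = 0.000302) in HM-Wnt and by 3.66 (SE 0.72, adjusted p = 0.00137) and 3.56 (SE 0.72, adjusted p = 0.00169) in MM on the log2 scale. Plod2 and Loxl4 kept their calls in every alternative tried, including those that left out a library. P4ha1 rose by 2.12 and 2.31 in HM-Wnt (SE 0.43 each, adjusted p = 0.00126 and 0.000642) and by 2.12 and 1.19 in MM (SE 0.43 and 0.42, adjusted p = 0.00162 and 0.0372).

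Tgm2 rose by 1.82 (SE 0.63, edgeR adjusted p = 0.0287) and 2.61 (SE 0.65, adjusted p = 0.00453) in HM-Wnt and by 3.66 (SE 0.68, adjusted p = 0.000869) and 3.36 (SE 0.67, adjusted p = 0.0015) in MM. Loxl2 rose by 2.51, 3.74, 3.27 and 2.54 in the same order (SE 0.85 to 0.88, adjusted p = 0.0254, 0.003, 0.00824 and 0.0297). Lox passed in HM-Wnt at 2 weeks (4.45, SE 1.70, adjusted p = 0.0422) and in MM at 1 week (5.22, SE 1.73, adjusted p = 0.0268), and Loxl3 fell by 2.72 (SE 0.98, adjusted p = 0.0333) in HM-Wnt at 2 weeks. These calls, and that of P4ha1 in MM at 2 weeks, were less stable than those of Plod2 and Loxl4. Without the fresh library labelled MDR2-het, Loxl2 no longer passed in HM-Wnt at 1 week (adjusted p = 0.0795) or MM at 2 weeks (0.0908), nor did Tgm2 in HM-Wnt at 1 week (0.0938) or Lox in HM-Wnt at 2 weeks (0.124) and MM at 1 week (0.0884). The remaining 18 of 23 calls held without it.

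Other single libraries also decided some of these calls. In HM-Wnt at 1 week Loxl2 no longer passed without HM-Wnt replicate 3 (edgeR adjusted p = 0.0866) or fresh replicate 1 (0.0737), and Tgm2 without HM-Wnt replicate 1 (0.0813) or 3 (0.111) or fresh replicate 1 (0.0665). In HM-Wnt at 2 weeks Lox was lost without HM-Wnt replicate 1 (0.0677) or 3 (0.108) or fresh replicate 1 (0.120), and Loxl3 without HM-Wnt replicate 1 (0.0828) or 2 (0.104) or fresh replicate 2 (0.118). In MM at 1 week Lox was lost without MM replicate 3 (0.0741) or fresh replicate 1 (0.0815). In MM at 2 weeks Loxl2 was lost without MM replicate 3 (0.0794) or fresh replicate 1 (0.0852), and P4ha1 without MM replicate 2 (0.0562) or 3 (0.136) or fresh replicate 1 (0.125) or 2 (0.0750). With all 27 libraries in 1 fit, Loxl4 and Plod2 passed in all 4 groups, P4ha1 in all but MM at 2 weeks, Loxl2 in HM-Wnt at 2 weeks alone, and Lox, Loxl3 and Tgm2 in none.

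**Figure D2:**
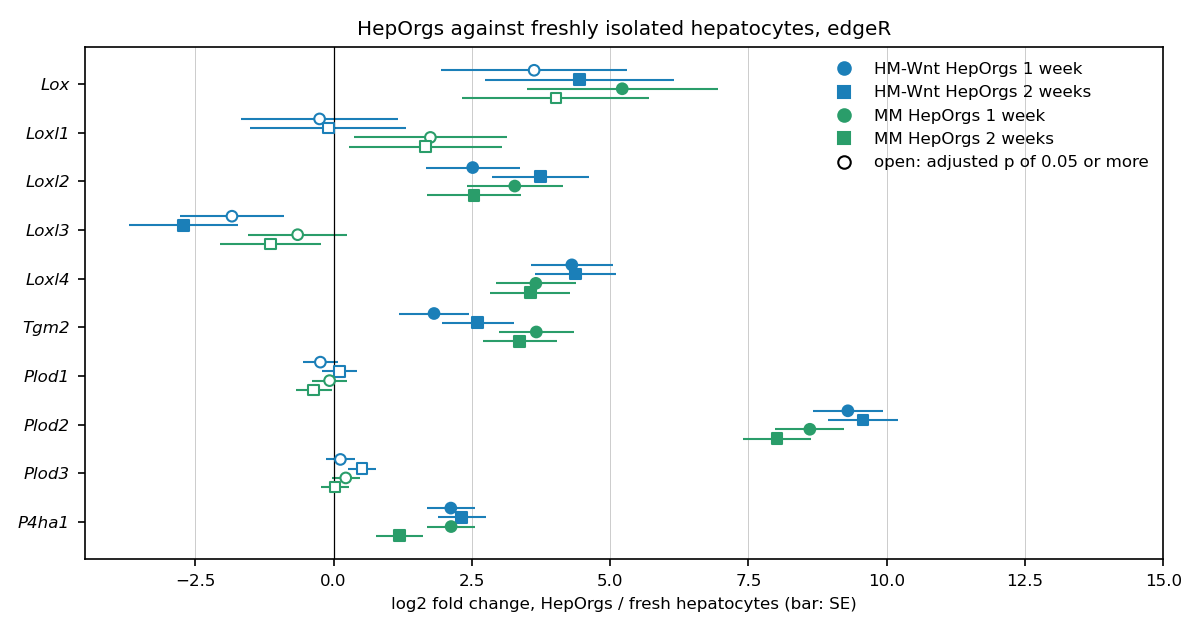
Log2 fold change of each enzyme in the 4 HepOrg groups against fresh hepatocytes, from edgeR, with bars of 1 standard error. Filled points passed an adjusted p of 0.05, and Plod2 stands furthest to the right at 8.02 to 9.57, while Loxl1, Plod1 and Plod3 have no filled point.

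Cell type markers moved in the same contrast. Summed cholangiocyte markers were 3571 to 15500 CPM in HepOrgs against 11.6 to 143 in fresh hepatocytes. That sum was almost all Spp1, the secreted phosphoprotein osteopontin, at 3471 to 15430 CPM, while Krt7, Krt19, Epcam, Sox9 and Cldn4 each reached at most 45.3 CPM in HepOrgs. Of the 6 cholangiocyte markers 3 passed as higher in HM-Wnt at 1 week and 5 in each of the other groups, and Spp1 in assembloids was 3172 to 10290 CPM. Summed endothelial markers were 0.317 to 1.96 CPM in HepOrgs against 24.4 to 116. Pdgfra, the mesenchyme receptor, lay between 0.0581 and 3.88 CPM in HepOrgs and between 0.639 and 2.98 CPM in fresh hepatocytes. Of the 7 portal mesenchyme markers tested, Vim, an intermediate filament, was higher in all 4 HepOrg groups (by 3.30 to 4.11 on the log2 scale), Ly6a was higher at 2 weeks in both media, Cd34 was lower in all 4 groups, and Dcn and Lum were lower in HM-Wnt at both times. The median of the list was -1.63 and -2.68 in HM-Wnt and -0.24 and -1.33 in MM at 1 and 2 weeks. The part of these markers in the enzyme differences was not tested. Of 20 other genes of collagen maturation, 19 had enough counts, and 5 or 6 were higher and 2 to 4 lower in each HepOrg group, where 19.7 to 26.1% of all genes were higher and 20.0 to 25.7% lower, so that the counts set the list little apart from other genes. Among those with the largest differences, P4ha2, another prolyl 4-hydroxylase subunit, was higher by 1.33 to 2.71 on the log2 scale, P3h4, a partner of lysyl hydroxylation in the endoplasmic reticulum, by 2.38 to 3.20, and Crtap, a partner of prolyl 3-hydroxylation, by 1.81 to 2.32, while Colgalt2, a collagen galactosyltransferase, fell by 2.56 to 4.19. The median over this list was between -0.64 and 0.58, against 0.00 to 0.03 in size for all genes. Of the fibrillar collagens and elastic fibre genes, 7 were tested. Col1a1 passed in MM at 1 week at 5.10 (SE 1.67, adjusted p = 0.0251) and Fbln5, a protein of elastic fibres, fell in all 4 groups, by 3.04 to 4.0. The other transglutaminase with enough counts, Tgm1, passed only in HM-Wnt at 2 weeks at 1.39 (SE 0.37, adjusted p = 0.0066), and the difference from the other groups was not tested.

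Since Loxl2, Loxl4, P4ha1, Tgm2 and Plod2 rose together against fresh hepatocytes, the 250 bases before their outermost annotated start are shown, 5′ to 3′ on the strand of the gene, read from GRCm39 with GENCODE starts. Capitals mark matches on either strand to ACGTG, the core of the hypoxia response element, or to GGGCGG, the GC box bound by Sp proteins, and no matches overlapped. The windows are chr14:69845959-69846208 (plus), chr19:42601253-42601502 (minus), chr10:59158842-59159091 (plus), chr2:157988360-157988609 (minus) and chr9:92423869-92424118 (plus).
Loxl2: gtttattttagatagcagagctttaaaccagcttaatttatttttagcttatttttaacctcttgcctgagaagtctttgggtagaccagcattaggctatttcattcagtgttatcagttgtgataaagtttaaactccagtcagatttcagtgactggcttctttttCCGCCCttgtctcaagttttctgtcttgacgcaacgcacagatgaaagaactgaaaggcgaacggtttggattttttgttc
Loxl4: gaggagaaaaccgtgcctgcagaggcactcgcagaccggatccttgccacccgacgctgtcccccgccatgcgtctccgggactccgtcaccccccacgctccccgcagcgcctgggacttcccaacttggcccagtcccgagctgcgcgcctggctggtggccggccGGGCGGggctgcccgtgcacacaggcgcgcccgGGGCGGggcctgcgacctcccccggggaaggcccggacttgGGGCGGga
P4ha1: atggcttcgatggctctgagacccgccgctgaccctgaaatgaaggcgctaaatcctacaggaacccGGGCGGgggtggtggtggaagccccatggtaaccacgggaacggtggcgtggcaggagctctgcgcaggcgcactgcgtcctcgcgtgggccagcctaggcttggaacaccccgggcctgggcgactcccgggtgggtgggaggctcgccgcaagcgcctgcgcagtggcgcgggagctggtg
Tgm2: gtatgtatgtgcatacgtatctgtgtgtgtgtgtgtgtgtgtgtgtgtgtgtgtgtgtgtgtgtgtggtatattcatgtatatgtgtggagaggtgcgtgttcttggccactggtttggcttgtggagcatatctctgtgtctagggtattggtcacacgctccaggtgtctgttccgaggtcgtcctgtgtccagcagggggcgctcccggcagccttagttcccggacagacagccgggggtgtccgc
Plod2: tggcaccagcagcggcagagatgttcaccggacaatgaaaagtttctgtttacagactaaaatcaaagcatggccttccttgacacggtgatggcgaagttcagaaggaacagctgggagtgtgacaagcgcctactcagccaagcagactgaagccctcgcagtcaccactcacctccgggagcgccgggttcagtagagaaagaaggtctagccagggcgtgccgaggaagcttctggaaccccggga
Loxl2 held 1 GGGCGG match, at 81 bases before the start, and a GC content of 37.6%. Loxl4 held 3 GGGCGG matches, at 8, 49 and 82 bases before the start, and a GC content of 75.2%. P4ha1 held 1, at 183 bases, with a GC content of 69.2%. Tgm2 and Plod2 held neither motif, with GC contents of 54.8% and 55.6%, and the Tgm2 window holds an alternating run of G and T of 46 bases. The Plod2 window lies inside an exon annotated to a non-coding transcript of unknown status. Among 21770 protein-coding genes, 16.4% of such windows held ACGTG, 29.9% held GGGCGG and the median GC content was 51.2%. Of the 9 members scanned, 2 held ACGTG (Loxl3 and Plod3) and 4 held GGGCGG (Loxl1, Loxl2, Loxl4 and P4ha1).

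The medium was compared next, MM against HM-Wnt. At 1 week 0 of 10 members passed (edgeR), where 2.98% of genes did. At an unadjusted p under 0.05 there were 3, Loxl4, Tgm2 and Plod2, against 22.5% of genes, DESeq2 called 1, Tgm2, against 11.4%, and with the replicate number as a block 0 passed, against 9.48%. The log2 fold change of Tgm2 at 1 week was 1.83 (SE 0.66, edgeR adjusted p = 0.138). At 2 weeks Plod2 was lower in MM, by -1.54 (SE 0.29, edgeR adjusted p = 0.00833), making 1 member lower and 0 higher where 4.61% of genes were lower and 6.84% higher. Replicate numbers paired the HepOrg libraries, and with the block 4 members passed, against 19.6% of genes, all lower in MM. They were Plod2 at -1.56 (SE 0.31, adjusted p = 0.00653), Loxl2 at -1.19 (SE 0.29, adjusted p = 0.0169), Loxl4 at -0.85 (SE 0.23, adjusted p = 0.0289) and P4ha1 at -1.19 (SE 0.33, adjusted p = 0.0293). The Plod2 call was lost when all 27 libraries entered 1 fit (adjusted p = 0.542). Tgm1 also fell at 2 weeks, by 1.32 (adjusted p = 0.0333). For the medium by time interaction 0 members passed (edgeR), against 0% of genes, with 1 at an unadjusted p under 0.05, Loxl2, against 7.32%, and 0 by DESeq2, against 0.362%.

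Assembloids with more mesenchyme had higher values of Lox, Loxl1, Loxl2 and Loxl3 at 2.5 weeks, but no member passed the main test at either time. At 1 week the Lox value was lower with all libraries, but its log2 fold change was 3.53 without the library with few genes. Fibrotic-like against homeostatic assembloids gave 0 of 10 members past the threshold at 1 week and 0 at 2.5 weeks (edgeR), as it did for 0% of the 14255 genes tested at either time. At 1 week 3 members, Loxl1, Loxl2 and Loxl3, had an unadjusted p under 0.05 (14.1% of genes) and DESeq2 called 1 of 9, Loxl3 (6.25%). At 2.5 weeks the numbers were 5, Lox, Loxl1, Loxl2, Loxl3 and P4ha1 (6.62%), and 1 of 9, Loxl1 (1.97%).

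At 2.5 weeks the log2 fold changes were 4.51 for Lox (SE 1.63, edgeR adjusted p = 0.737), 5.0 for Loxl1 (SE 1.29, adjusted p = 0.714), 3.04 for Loxl2 (SE 1.18, adjusted p = 0.742), 3.62 for Loxl3 (SE 1.39, adjusted p = 0.742) and 0.51 for Loxl4 (SE 1.33). They were -0.21 for Tgm2 (SE 1.5), 0.21 for Plod1 (SE 1.47), 1.41 for Plod2 (SE 0.78), 0.47 for Plod3 (SE 0.38) and 1.39 for P4ha1 (SE 0.61). For 8 of the 10 members, all but Loxl4 and Tgm2, every fibrotic-like library was above every homeostatic one, against 21.7% of genes. The share of genes with this layout is the background to which the 8 are read, and portal mesenchyme markers separated the same groups, with summed levels of 578 to 1419 against 102 to 146 CPM and a median difference of 3.15. Cholangiocyte markers moved with the same contrast, 5 of 6 positive with a median of 2.98. Krt19 was 192.5 to 1649 CPM in fibrotic-like against 36.8 to 64.6 in homeostatic assembloids, and Krt7 245 to 970 against 31.0 to 76.3. Both groups received 1000 cholangiocytes per well. Of the 6 hepatocyte markers 1 was positive, with a median of -0.67. The part of these markers in the enzyme differences was not tested.

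Without the homeostatic library with few genes, which shares its spread estimate with the 2.5 week groups, the same 2.5 week differences had smaller standard errors. Lox was then 4.52 (SE 0.94, edgeR adjusted p = 0.0571), Loxl1 5.0 (SE 1.14, adjusted p = 0.0712), Loxl3 3.62 (SE 0.78, adjusted p = 0.0638) and Loxl2 3.03 (SE 0.95, adjusted p = 0.137). Still 0 members passed, against 0.258% of genes, while DESeq2 without that library called 6 higher, Lox, Loxl1, Loxl2, Loxl3, Plod2 and P4ha1, against 11.7% of genes.

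At 1 week the library with few genes decided several values. With it, Lox was -0.81 (SE 1.41, edgeR adjusted p = 0.843), Loxl1 3.16 (SE 1.18), Loxl2 2.58 (SE 1.16), Loxl3 4.31 (SE 1.44, adjusted p = 0.291), Loxl4 1.57 (SE 1.35), Tgm2 -0.97 (SE 1.51), Plod1 0.19 (SE 1.47), Plod2 -0.10 (SE 0.77), Plod3 -0.60 (SE 0.39) and P4ha1 -0.25 (SE 0.60). Only Loxl3 was higher in every fibrotic-like library, against 18.6% of genes. Without it, Loxl3 passed at 3.71 (SE 0.94, edgeR adjusted p = 0.0471), as did 8.01% of genes. Lox turned to 3.53 (SE 1.06, adjusted p = 0.0621), Loxl1 was 4.25 (SE 1.31, adjusted p = 0.0648), Loxl2 4.0 (SE 1.18, adjusted p = 0.0601), Plod2 1.53 (SE 0.48, adjusted p = 0.0671) and Tgm2 -1.56 (SE 0.48, adjusted p = 0.0648). Lox, Loxl2, Loxl3 and Plod2 were then higher in every fibrotic-like library, 4 members against 28.4% of genes, and DESeq2 called 6, these and Loxl1 higher and Tgm2 lower, against 29.8%. The 6 cholangiocyte markers then had a median of 2.27 and the 8 portal mesenchyme markers 2.95, against 0.15 and 2.46 with the library.

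**Figure D3:**
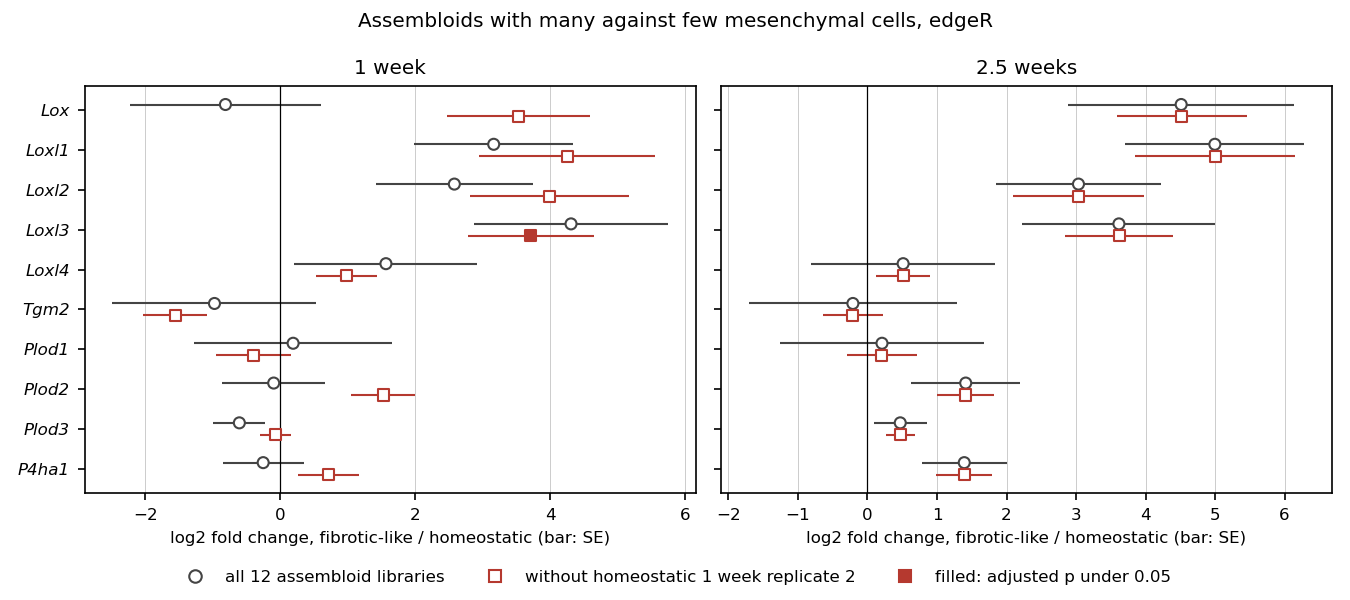
Log2 fold change of each enzyme in fibrotic-like against homeostatic assembloids at 1 and 2.5 weeks, from edgeR, with bars of 1 standard error, for all 12 assembloid libraries and without the homeostatic library with few genes. At 1 week the Lox value moves from -0.81 to 3.53, and at 2.5 weeks the values stay while their bars shorten.

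No member passed the test for time in assembloids. Between 1 and 2.5 weeks in homeostatic assembloids 0 members passed (edgeR, 0% of genes), with 1 at an unadjusted p under 0.05, Lox, lower (6.57% of genes), and 0 by DESeq2 (0.123%). Lox there was -4.25 (SE 1.61, adjusted p = 0.759) and 0.08 without the library with few genes, and the other members then lay between -0.69 and 0.62, none with an unadjusted p under 0.05. In fibrotic-like assembloids 0 passed (0% of genes), with 0 at an unadjusted p under 0.05 (0.856%) and 0 by DESeq2 (0%). Without the library with few genes in the fit, the Tgm2 value in fibrotic-like assembloids was 1.55 (SE 0.44, edgeR adjusted p = 0.469). For the interaction of mesenchyme number and time 0 passed (0%), with 1 at an unadjusted p under 0.05, Lox (1.95%), and 0 by DESeq2 (0%). The Lox interaction was 5.32 (SE 2.11, edgeR adjusted p = 1) and 0.99 (SE 1.22, adjusted p = 0.926) without the library with few genes, where no member had an unadjusted p under 0.05. A difference between the 1 week and 2.5 week effects was not detected.

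Assembloids were also set against MM HepOrgs of the same medium and time. Homeostatic assembloids at 1 week gave 0 members (edgeR, 0% of 14388 genes), with 1 at an unadjusted p under 0.05, Lox (15.6%), 0 by DESeq2 (6.35%) and 0 without the library with few genes (0.0269%). Fibrotic-like assembloids gave 0 (0.751% of genes), with 3 at an unadjusted p under 0.05, Loxl1 and Loxl3 higher and Tgm2 lower (20.9%), and 2 by DESeq2, Loxl1 and Loxl3 (14.7%). Loxl1 came nearest, at 5.09 (SE 1.36, edgeR adjusted p = 0.0658). When the library with few genes, which belongs to neither group, was left out of the estimate of spread, 4 members passed, against 34.7% of genes. Lox at 2.97 (SE 1.07, adjusted p = 0.0455), Loxl1 at 5.07 (SE 1.2, adjusted p = 0.00692) and Loxl3 at 3.70 (SE 0.93, adjusted p = 0.0091) were higher, and Tgm2 at -3.13 (SE 0.46, adjusted p = 0.00102) was lower. In the same fit 11 of 20 collagen maturation genes were higher and 2 lower, led by the procollagen peptidase Adamts2 at 5.54 and the collagen chaperone Serpinh1 at 4.45, and 7 of 8 fibrillar collagen and elastic fibre genes were higher. F13a1, the catalytic subunit of coagulation factor XIII, was higher by 6.59 and Tgm1 lower by -2.38. Pdgfra was higher by 4.82 and Krt19 by 5.75 in this comparison, and their part in the enzyme differences was not tested.

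Enzymes were also read relative to their substrate, whose transcripts were themselves higher in fibrotic-like assembloids. The 5 fibrillar collagen transcripts Col1a1, Col1a2, Col3a1, Col5a1 and Col5a2 were summed, and each enzyme was expressed as a log2 ratio to that sum. At 2.5 weeks the ratio of Lox was -5.42 ± 1.34 in fibrotic-like and -5.48 ± 0.94 in homeostatic assembloids (SD, n = 3 each), a difference of 0.06 (two-sided exact permutation p = 1.0). For Loxl1 it was -6.22 ± 0.20 against -6.64 ± 0.76 (SD, n = 3 each), a difference of 0.42 (exact permutation p = 0.6). The ratios of the other 8 enzymes were lower in every fibrotic-like library than in any homeostatic one, as they were for 96.5% of the 14255 genes tested, so this layout is that of most genes when divided by the collagens. Overlapping ratios, as those of Lox and Loxl1, were the rarer layout. The differences were -1.93 for Loxl2, -0.91 for Loxl3, -3.49 for Loxl4, -4.18 for Tgm2, -3.73 for Plod1, -2.62 for Plod2, -3.48 for Plod3 and -2.67 for P4ha1, each with an exact permutation p of 0.1, the smallest that 3 against 3 allow, and the median over all genes was -3.93. The summed list of collagens and elastic fibre genes itself was 1033 to 4242 CPM against 136 to 186 CPM. Against the summed portal mesenchyme markers in place of the collagens, Loxl1 differed by 1.26 and Loxl3 by -0.07, and on the deposited TPM the Loxl1 ratio turned to -0.42. At 1 week the ratios overlapped for 9 of the 10 members, and P4ha1 was lower in every fibrotic-like library, by -2.38 (exact permutation p = 0.1), against 3.98% of genes. For Loxl4, Tgm2, Plod1 and Plod3 that overlap rested on the library with few genes. The ratios of Lox, Loxl1, Loxl2, Loxl3 and Plod2 overlapped with or without that library. Without it 5 members, Loxl4 (-2.43), Tgm2 (-4.72), Plod1 (-3.96), Plod3 (-3.34) and P4ha1 (-2.63), were lower in every fibrotic-like library, against 53.6% of genes, and the median difference over all genes was -3.14. Lox and Loxl1 then differed by -0.10 and 0.06.

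**Figure D4:**
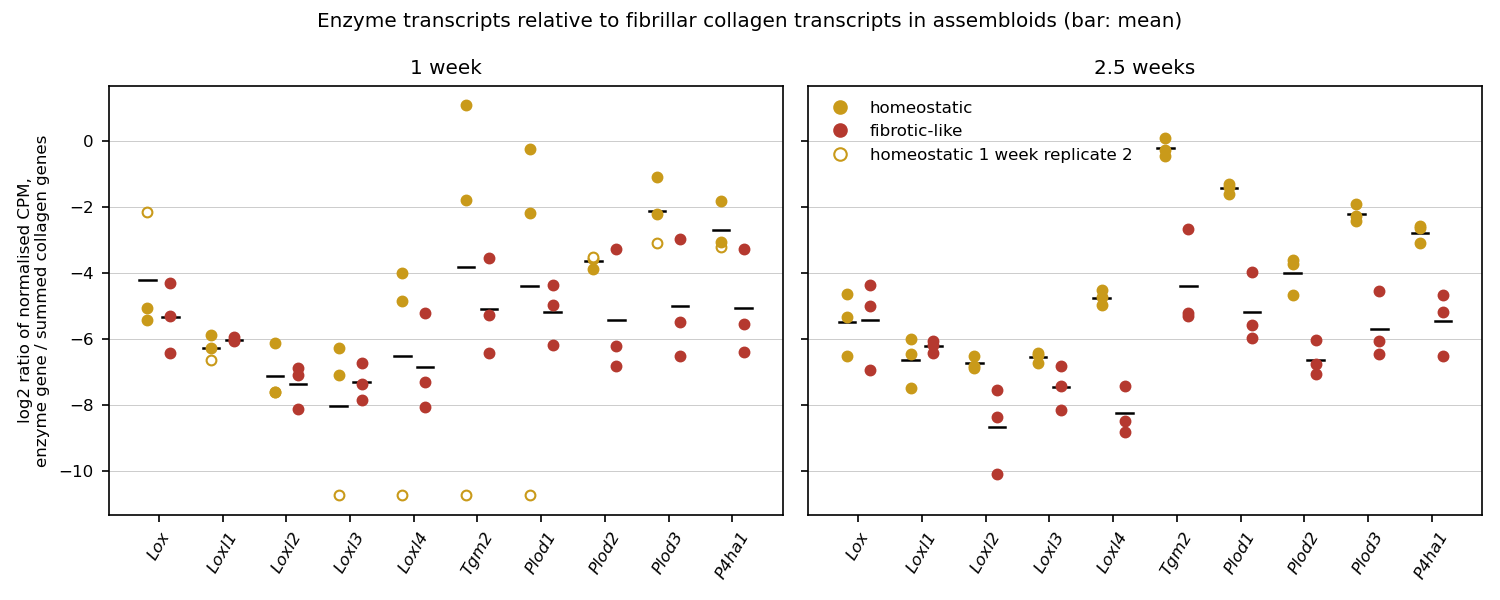
Log2 ratio of each enzyme to the summed CPM of 5 fibrillar collagen transcripts in each assembloid library at 1 and 2.5 weeks, with group means. At 2.5 weeks the fibrotic-like and homeostatic points of Lox and Loxl1 overlap, and those of the other 8 enzymes do not, a layout shared by 96.5% of genes.

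Other genes of collagen maturation were read from the list of 20. At 2.5 weeks 17 of 20 had a positive value and 0 passed (edgeR), with a median of 1.58 against 0.03 for all genes, and at 1 week 15 of 20 were positive, with a median of 0.91 against 0.20. Without the library with few genes, Serpinh1 passed at 1 week at 3.63 (SE 0.81, adjusted p = 0.0442). All 8 fibrillar collagen and elastic fibre genes were positive at 2.5 weeks, from 3.11 to 4.71, with a median of 4.02, and 0 passed. Of the other transglutaminases 2 had enough counts and 0 passed at either time.

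The members' levels over libraries were also compared with each other, as a description, by Pearson correlation of log2(CPM + 1) over 26 libraries, without the library with few genes. Loxl1 and Loxl3 were most alike (0.961), followed by Loxl4 and Plod2 (0.924) and by Lox and Loxl1 (0.911). Plod2 and P4ha1 reached 0.821, and Lox and Tgm2 0.013. Over all 27 libraries the Loxl4 and Plod2 value was 0.696, and the Lox and Tgm2 value -0.305. The libraries share conditions, so that these values mostly describe differences between conditions.

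Among 11667 genes with a mean of at least 1 CPM, the 5 most like each of 4 members, 1 from each of the 4 enzyme classes, were listed over the 27 libraries. Genes with Gm-number or Rik symbols, or with no symbol but an identifier, were left out of the search. For Lox they included Frzb (0.942), Thbs2 (0.939), Cryab (0.937) and Ak1 (0.933). Those nearest to Tgm2 were Jak3 (0.932), Mfsd13a (0.931), Scamp5 (0.929), Entpd2 (0.921) and Slc6a9 (0.917). Plod2 was closest to Slc38a1 (0.944), Cdh17 (0.938), Tmem159 (0.934), Ltbp3 (0.933) and Pkm (0.929), and P4ha1 to the glucose transporter Slc2a1 (0.890), Sdcbp (0.885), the glycolytic enzymes Hk1 (0.871) and Aldoa (0.870), and Plxdc2 (0.862). Over 26 libraries the first for each were Mrc2 (0.947), Tnfrsf1a (0.910), Gnb5 (0.970) and Kif21b (0.894), and P4ha2 came within the first 5 for P4ha1 (0.889). Frzb and Cryab then left the first 5 for Lox, Mfsd13a and Slc6a9 those for Tgm2, and Ltbp3 and Pkm those for Plod2. Of the genes named for P4ha1 over 27 libraries, only Slc2a1 stayed.

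Reads of overlapping genes limit some of these values. The library kit does not mark strand, and 8 of the 10 members overlap a gene on the opposite strand, all but Plod1 and P4ha1, so reads of the pair cannot be told apart. Protein-coding partners are R3hcc1 for Loxl2, Htra2 for Loxl3, R3hcc1l for Loxl4, Rprd1b for Tgm2 and Znhit1 for Plod3.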

How the data were processed

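The authors prepared SMART-seq2 libraries, aligned reads to GRCm39 with STAR and counted them per gene with featureCounts; the deposited table gives a whole-number count and a TPM for each gene and library. TPM were made by the authors with a gene length close to the gene span. Of 37 libraries, 27 with titles matching the labels were used and 10 were not. Symbols were matched exactly.

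Tests on the deposited counts used edgeR 4.0.16 under R 4.3.3 (TMM factors, filterByExpr with a minimum count of 10 and total of 15, quasi-likelihood test, Benjamini-Hochberg adjustment over all genes tested, threshold 0.05), whereas the authors used DESeq2. Separate fits held the 12 assembloid, the 18 MM, the 12 HepOrg and the 15 HepOrg and fresh libraries. DESeq2 1.42.0, RLE factors, no filter on low counts, limma 3.58.1 on log2(TPM + 1) or on log2(TPM + 0.1), where 3 libraries had to reach 1 TPM, only the compared groups, all 27 libraries, a replicate block and leaving out each library were alternatives. The added alternative leaves out the homeostatic library with few genes. Scripts were tested on simulated data. The pass limits covered the edgeR and DESeq2 fits at a chosen spread, not at the spread of these libraries.

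All members are named. Other genes come from 3 pathway lists and 5 marker lists, with up to 4 named among those past the threshold, and from the most alike genes, 1 of which is not reported here. Members and lists were chosen with earlier results of these data known. In the HepOrg fit 18 of 18 same-numbered pairs of libraries had correlated deviations over 0.1 (lowest 0.127, median 0.207), so the blocked result is given where it moves a call. In the other fits 6 of 18 (assembloids), 11 of 45 (MM) and 19 of 30 (with fresh hepatocytes) did. What a replicate number stands for is not given in the labels. Depth of at least 30289364 counts makes counting error small beside the spread of libraries, except for genes with few counts.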

Additional observations from a re-analysis of the deposited data

How the results depend on the processing

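Of 342 results for single enzymes under the planned settings, 300 kept their direction and side of the threshold, and leaving out 1 library kept 229 of 264. These results cover every member for fibrotic-like against homeostatic assembloids at both times, and only the calls elsewhere. No member passed in the former, so staying uncalled there also counted as kept. RLE size factors and no filter on low counts kept 44 of 44 each. For fibrotic-like against homeostatic assembloids at 1 week the count of members past the threshold moved from 0 to 1 with DESeq2, 2 with limma on log2(TPM + 1), 1 on log2(TPM + 0.1), 1 with all 27 libraries, and 0 to 1 when leaving out a library (1 without homeostatic replicate 2). At 2.5 weeks it moved from 0 to 1 with DESeq2 and 3 with only the compared groups, and stayed 0 when leaving out a library. Fibrotic-like assembloids against MM HepOrgs moved from 0 to 2 with DESeq2, 2 on either TPM scale, 4 with the compared groups, 1 with all 27 libraries and 4 with the added setting. The media at 1 week moved from 0 to 1 with DESeq2, and at 2 weeks from 1 to 3 with DESeq2, 4 with the replicate block, 4 with the compared groups, 0 with all 27 libraries and 1 to 2 when leaving out a library (2 without MM replicate 3). Against fresh hepatocytes, HM-Wnt at 1 week moved from 5 to 3 on either TPM scale, 3 with the compared groups, 3 with all 27 libraries and 3 to 6 when leaving out a library. With all 27 libraries HM-Wnt at 2 weeks fell from 7 to 4, MM at 1 week from 6 to 3 and MM at 2 weeks from 5 to 2, and leaving out a library gave 5 to 6, 5 to 6 and 3 to 6. The substrate ratio count was 9, and 9 to 13 when leaving out a library.

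Signs turned at 1 week in assembloids. On log2(TPM + 1) and log2(TPM + 0.1), Lox was 1.61 and 2.05, Tgm2 1.08 and 2.15, Plod2 0.82 and 1.27, Plod3 0.24 and 0.25 and P4ha1 0.59 and 0.72, and at 2.5 weeks Tgm2 was 0.34 and 0.34. The median of all genes was itself 0.867 and 1.413 there, against 0.202 with TMM. With the replicate block, Lox was 0.74 and Plod2 0.32. Leaving out 1 library gave -1.34 to 3.53 for Lox, -1.56 to 0.43 for Tgm2, -0.39 to 0.98 for Plod1, -0.54 to 1.53 for Plod2 and -0.58 to 0.71 for P4ha1. The cause was not tested.

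On log2(TPM + 1) calls against fresh hepatocytes leaned higher, with 4160 higher and 1280 lower in HM-Wnt at 1 week, where counts gave 3341 and 3325. Low counts of Lox, Loxl1, Loxl2, Loxl3 and Plod2 in fresh hepatocytes limit the size of their differences. With 3 libraries per group, the exact permutation test cannot go below 0.1.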
